A study of Xenopus laevis with 3 samples.

Results

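The spots described here are the 29 of 21504 on a spotted cDNA array whose annotated name contains "erythrocyte", "globin", "band 4." or "cytoskeletal protein 4.1", leaving out names with immunoglobulin, plakoglobin or thyroglobulin. They carried 6 names: membrane protein 7 of the erythrocyte (2 spots), the erythrocyte adducin alpha subunit (3 spots), cytoskeletal protein 4.1 (7 spots), cytoskeletal protein 4.1G (7 spots), the 55 kDa erythrocyte membrane protein (8 spots) and an alpha globin transcription factor (2 spots). No spot was named for a globin chain. Of the 4 names that contain "globin", 2 were the transcription factor and 2 were plakoglobin, a junction protein left out by the rule. A further 7847 clone spots had no annotated match, so what they hold is not known. The RefSeq gene table lists 12 globin chain genes of this frog, and the files tie no spot to one of them. An annotation is the closest database entry, frequently from a different species, and stops after 40 letters.

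Hemoglobin, built of alpha-type and beta-type globin chains with heme, is what defines a red blood cell. Its membrane is held by a skeleton of spectrin and short actin filaments. Protein 4.1 ties that skeleton to membrane proteins together with the 55 kDa protein, a membrane scaffold, and adducin caps the actin filaments and joins them to spectrin. Adducin, the protein 4.1 family and the 55 kDa protein are also made in many other cells, and 4.1G is the more widely expressed relative of protein 4.1. With no named globin chain, and with 0 spots for a list of erythroid regulators that included GATA-1, TAL1 and EKLF, red blood cells could not be identified from these spots by their defining genes. They are therefore called here by their annotated names.

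The study compared anterior with posterior endoderm of Xenopus laevis, the African clawed frog, at stages 30, 39 and 46. Endoderm was cut out by hand and divided into an anterior piece, which forms liver, gallbladder and lung among others, and a posterior piece, which forms the intestine. Anterior cDNA carried Cy5 and posterior cDNA carried Cy3 on each of the 6 arrays, 2 per stage, called A and B. The dyes were never exchanged, so in a single ratio region and dye cannot be told apart, whereas a difference of the ratio between stages has the same dyes on both sides. The labels name no genotype, strain or treatment, and leave unsaid if A and B came from separate dissections. P-values therefore measure the spread between hybridisations, which may be technical. In dissected tissue, fewer cells of a type and less RNA per cell cannot be told apart.

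The log2 ratio used throughout is that of anterior over posterior signal, after background correction and normalisation within each array, so values above 0 stand for a stronger anterior signal. Median spot intensity ranged from 607 to 2988.5 in anterior and from 807 to 3037 in posterior channels, and 39.5% to 60.0% of spots in anterior and 43.7% to 62.7% in posterior channels were well above background, meaning more than 2 background SDs over the local background. Testing required this of 1 channel or both on 2 or more arrays. Of the 29 spots, 22 passed, 13 of them with a value on every array; 7 did not pass, and 1 of those, for 4.1G, was found by the scanning software on no array. At most 1% of a spot's pixels were saturated. The median difference between arrays A and B was 0.12, 0.10 and 0.10 log2 for these spots at stages 30, 39 and 46, against 0.12, 0.08 and 0.08 for all probes.

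Anterior and posterior endoderm differed at 11 of 18 tested spots at stage 30, at 16 of 20 at stage 39 and at 14 of 19 at stage 46, by limma with Benjamini-Hochberg adjustment over all probes and a threshold of 0.05. Over all probes tested, 56.4%, 63.1% and 55.6% passed at these stages, so the shares of 61.1%, 80% and 73.7% among the spots are to be read against a background in which most probes passed. At stage 30, 3 spots were called higher (28.6% of all probes) and 8 lower (27.7% of all probes) in anterior endoderm. At stage 39 there were 6 higher (31.4%) and 10 lower (31.7%), and at stage 46 there were 8 higher (30.4%) and 6 lower (25.2%). Among the members, 0, 0 and 2 differed more than 2-fold, against 1.27%, 4.62% and 2.39% of all probes. Their median log2 ratio was -0.08, -0.28 and 0.11, with 0.01, 0.01 and 0.02 over all probes. Of these calls, 2 at stage 30 and 3 at stage 46 had 1 region well above background on no array, and 1 each at stages 39 and 46 had neither region well above it. Of the 22 spots, 5 (22.7%) were called in both directions at different stages, 5 (22.7%) only higher, 10 (45.5%) only lower and 2 (9.09%) at no stage. Of the 15564 probes tested at any stage, 24% were called in both directions, 33.2% only higher, 30.1% only lower and 12.7% at no stage. The plot of ratios by annotated name shows the values behind these calls.

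**Figure D1:**
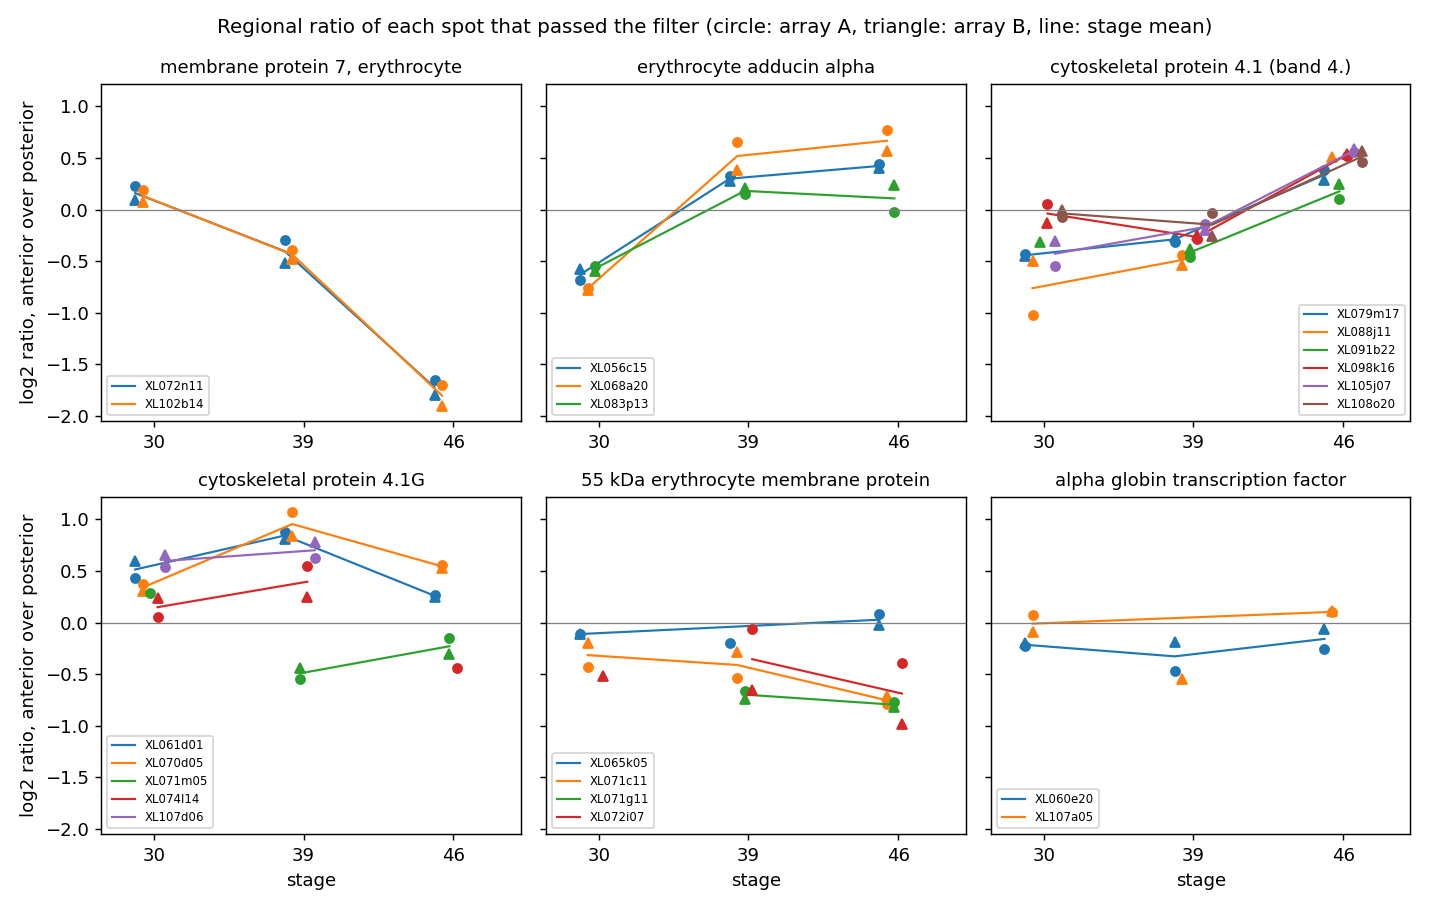
Log2 ratio of anterior over posterior signal (vertical axis) at stages 30, 39 and 46 (horizontal axis) for the 22 spots that passed the filter, 1 panel per annotated name and 1 colour per spot. Circles are array A, triangles array B, and lines join the means of stages with both arrays; signals not well above background are included. Both spots of membrane protein 7 lie at or below -1.65 on the stage 46 arrays, the 3 adducin spots lie below 0 at stage 30 and above 0 at stage 39, and the protein 4.1 spots lie above 0 at stage 46.

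Membrane protein 7 of the erythrocyte had the largest regional difference among the 6 names, and it was lower in anterior endoderm at the latest stage. The name is that of a protein of the red cell membrane. The annotation gives neither its role nor whether other cells make it. The brighter spot, XL102b14, gave log2 ratios of 0.19 and 0.07 on the stage 30 arrays, -0.39 and -0.48 on the stage 39 arrays and -1.70 and -1.90 on the stage 46 arrays. The 3 stages did not overlap, and the ratio was lowest at stage 46. The median pixel intensity before any correction was 1838 and 2581 in the anterior channel against 6782 and 10306 in the posterior channel at stage 46, so the difference stands in the scanner values. The fitted ratio was -1.80 ± 0.07 at stage 46 (SE; adjusted p = 2.34e-06), a signal 3.49-fold lower in anterior endoderm. At stage 39 it was -0.44 ± 0.07 (adjusted p = 0.000953), and at stage 30 it was 0.13 ± 0.07 (adjusted p = 0.133) with XL102b14 well above background on 1 array only.

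The second spot of this name, XL072n11, gave 0.23 and 0.09, then -0.29 and -0.52, then -1.65 and -1.80 on the arrays of stages 30, 39 and 46. Neither region was well above background at stage 30, and the anterior channel was not at stage 46. The anterior signal at stage 46 was lower by a fitted 3.30-fold (adjusted p = 3.96e-06). This is no lower limit, since the anterior signal itself lay above the lowest signal well above background on its array. The local background was uneven there, with an SD of 617 and 757 in the anterior channel. At stage 39 the fitted ratio was -0.40 ± 0.08 (adjusted p = 0.00224), and the call was lost without array B of that stage (adjusted p = 0.0506). At stage 39 each region of XL072n11 was well above background on 1 array. These 2 spots of membrane protein 7 are the members called more than 2-fold at stage 46.

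The change of the ratio with stage was tested directly. Between stages 39 and 30 the ratio changed at 7 of 16 tested spots, 5 higher (29.5% of all probes) and 2 lower (30.5%) at stage 39, where 60% of all probes passed. Between stages 46 and 39 it changed at 10 of 17 spots, 5 higher (28.1% of all probes) and 5 lower (22.1%) at stage 46, where 50.2% of all probes passed. In each step, 3 of these calls rested on a stage at which 1 or both regions were well above background on no array, which left 4 and 7 others. The ratio of XL102b14 changed downward in each step, by -0.57 ± 0.10 from stage 30 to 39 (adjusted p = 0.0016) and by -1.37 ± 0.10 from stage 39 to 46 (adjusted p = 4.25e-05). For XL072n11 no size of change is given, since 1 or both regions were not well above background at stages 30 and 46.

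To see in which region the signal moved, both channels were set on 1 scale and compared between stages, for the 13 spots with a value on every array. This comparison is across arrays and has larger errors than the ratio. The log2 signal of XL102b14 was 10.87 and 10.55 in anterior against 10.68 and 10.48 in posterior endoderm at stage 30. At stage 39 it was 11.09 and 10.92 in anterior against 11.48 and 11.40 in posterior endoderm, and at stage 46 it was 11.80 and 11.97 in anterior against 13.51 and 13.87 in posterior endoderm. The posterior signal at stage 46 stood above all other values of this spot. It rose by 2.25 ± 0.28 log2 over stage 39 (adjusted p = 0.00104), whereas the anterior signal differed by 0.88 ± 0.28 (adjusted p = 0.0993). For XL072n11 the posterior signal rose by 1.83 ± 0.47 (adjusted p = 0.0448). The posterior call for XL072n11 ended without any single array of stage 39 or 46 (adjusted p 0.0512 to 0.355), and that for XL102b14 did not (0.00975 to 0.0232).

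Across the 13 spots, 3 rose and 0 fell from stage 30 to 39 in anterior endoderm (10.8% of all probes passed and 4.94% rose), and 1 fell and 0 rose from stage 39 to 46 (5.45% of all probes passed and 2.42% fell). In posterior endoderm 0 of 13 changed from stage 30 to 39 by limma, where 7.01% of all probes passed after adjustment. At an unadjusted p under 0.05 there were 2 of 13, against 22.8% of all probes. From stage 39 to 46 the 2 spots of membrane protein 7 rose in posterior endoderm (5.34% of all probes passed and 2.68% rose). The 3 that rose in anterior endoderm were 2 adducin spots and 1 of 4.1G.

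**Figure D2:**
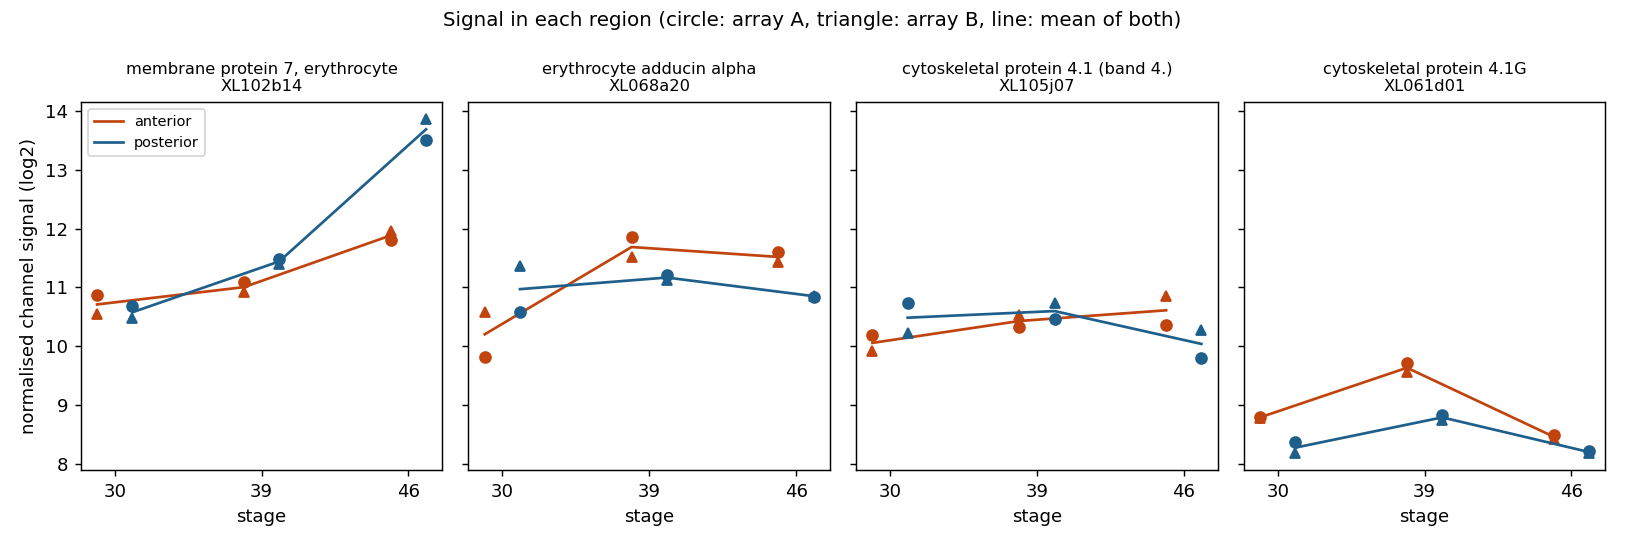
Normalised log2 signal (vertical axis) of anterior and posterior endoderm at stages 30, 39 and 46 (horizontal axis) for 4 selected spots. Only XL102b14 is the brightest of its name with a value on every array. The brightest adducin spot, XL083p13, is not shown. From stage 30 to 39 it differed by -0.14 in anterior and -0.89 in posterior endoderm, and neither was called. Circles are array A, triangles array B, and lines join the means of both arrays. The posterior signal of XL102b14 at stage 46, 13.51 and 13.87, is the highest shown, the anterior signal of XL068a20 is lowest at stage 30, and the anterior signal of XL061d01 is highest at stage 39.

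Adducin alpha changed its direction between stages 30 and 39. All 3 spots were lower in anterior endoderm at stage 30, and 2 of them were higher at stage 39. Over all probes, 27.7% were lower at stage 30 and 31.4% higher at stage 39. Spot XL068a20 gave -0.76 and -0.78 on the stage 30 arrays, 0.65 and 0.39 on those of stage 39 and 0.77 and 0.57 on those of stage 46. Stage 30 lay apart from both later stages, which overlapped each other. Its fitted ratios were -0.77 ± 0.08 (adjusted p = 0.000238), 0.52 ± 0.08 (adjusted p = 0.000841) and 0.67 ± 0.08 (adjusted p = 0.000405). The ratio rose by 1.29 ± 0.11 from stage 30 to 39 (adjusted p = 7.7e-05).

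Spot XL056c15 gave -0.69 and -0.57, then 0.32 and 0.28, then 0.44 and 0.40. Its stages did not overlap, with stage 30 lowest and stage 46 highest. The fitted ratios were -0.63 ± 0.06 (adjusted p = 0.00014), 0.30 ± 0.06 (adjusted p = 0.00247) and 0.42 ± 0.06 (adjusted p = 0.000696), and the rise from stage 30 to 39 was 0.93 ± 0.08 (adjusted p = 7.41e-05). The brightest spot of the name, XL083p13, gave -0.54 and -0.60, then 0.15 and 0.21, then -0.02 and 0.24. It was lower at stage 30 by a fitted 1.49-fold (adjusted p = 0.000495), with the anterior channel not well above background. The local background of this spot was uneven there, with an SD of 7040 and 8722 in the anterior channel. At stage 39 its ratio was 0.18 ± 0.07 (adjusted p = 0.0562) and at stage 46, where neither region was well above background, 0.11 ± 0.07 (adjusted p = 0.23). No size is given for the change of its ratio from stage 30. From stage 39 to 46, 0 of 3 adducin spots passed in limma (50.2% of all probes), with differences of -0.07 to 0.15. At an unadjusted p under 0.05 there were 0 (57.1% of all probes).

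Read by region, the anterior log2 signal of XL068a20 was 9.82 and 10.59 at stage 30, against 10.58 and 11.37 in posterior endoderm. At stage 39 it was 11.86 and 11.51 in anterior against 11.21 and 11.13 in posterior endoderm, and at stage 46 it was 11.61 and 11.43 in anterior against 10.84 and 10.86 in posterior endoderm. The anterior values of stage 30 lay below those of both later stages, while the posterior values of stage 30 spanned those of both later stages. From stage 30 to 39 the anterior signal rose by 1.48 ± 0.35 (adjusted p = 0.022), and the posterior difference was 0.20 ± 0.35 (adjusted p = 0.778). For XL056c15 the anterior rise was 1.21 ± 0.25 (adjusted p = 0.0123) and the posterior difference 0.28 ± 0.25 (adjusted p = 0.553). Without array A or array B of stage 39 neither anterior call was kept (adjusted p 0.0672 to 0.149), and that of XL068a20 was also lost without array A of stage 30 (adjusted p = 0.0835). For XL083p13, whose anterior channel was not well above background at stage 30, neither region passed the test. Its anterior difference was -0.14 ± 0.30 (adjusted p = 0.799) and its posterior difference -0.89 ± 0.30 (adjusted p = 0.1). Whether the adducin spots differed in the region where the signal moved was not tested.

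A further pair of spots named alpha-adducin, from another database entry, was not among the 29. XL099h11 had ratios of -0.17, 0.39 and 0.06 at stages 30, 39 and 46 (adjusted p 0.0564, 0.00126 and 0.486), and its change from stage 30 to 39 was 0.55 ± 0.09 (adjusted p = 0.00134). From stage 39 to 46 it changed by -0.33 ± 0.09 (adjusted p = 0.0179). XL105d15 had no tested value at stage 30 and was higher at stages 39 and 46, at 0.54 (adjusted p = 0.000465) and 0.25 (adjusted p = 0.0168), a change of -0.29 ± 0.09 (adjusted p = 0.0371). A spot for cardiac actin, a marker of heart and other striated muscle, had ratios of -0.57, 0.24 and 0.29 (XL0c2b01, adjusted p 0.000167, 0.00561 and 0.00302), which has the same signs as adducin. The other cardiac actin spot, XL0c2b02, had no tested value at stage 30 and ratios of 0.03 and 0.20 at stages 39 and 46 (adjusted p 0.72 and 0.024). The part of muscle in the adducin result was not tested.

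The ratio of protein 4.1 rose between stages 39 and 46 in 4 spots, by 0.59 to 0.80 log2, and 3 of these 4 were higher in anterior endoderm at stage 46. The remaining spot tested, XL079m17, is set aside here because neither region was well above background at stage 46. At stage 30, 3 of 5 were lower and 2 missed the threshold, and at stage 39, 4 of 6 were lower and 2 did not pass. Over all probes, 27.7% and 31.7% were lower at stages 30 and 39. At stage 46, 30.4% of all probes were higher, and the ratio of 28.1% rose from stage 39 to 46. Between stages 30 and 39, 0 of 5 passed in limma (60% of all probes), and 2 had an unadjusted p under 0.05 (64.5% of all probes). The brightest spot, XL098k16, gave 0.05 and -0.13, then -0.29 and -0.25, then 0.52 and 0.54 on the arrays of stages 30, 39 and 46. Stage 46 lay apart from both earlier stages. The fitted ratio was 0.53 ± 0.06 at stage 46 (adjusted p = 0.000366), with each region well above background on 1 of 2 arrays, and the rise from stage 39 was 0.80 ± 0.09 (adjusted p = 0.000301). At stage 39 it was -0.27 ± 0.06 (adjusted p = 0.00639), a call lost with median centring in place of loess (adjusted p = 0.102) and without array A of stage 39 (adjusted p = 0.0812). At stage 30 it was -0.04 ± 0.06 (adjusted p = 0.614).

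Spot XL105j07 gave -0.55 and -0.31, then -0.14 and -0.20, then 0.56 and 0.58. It was lower at stage 30 (-0.43 ± 0.07, adjusted p = 0.0015), at -0.17 ± 0.07 at stage 39 (adjusted p = 0.0629) and higher at stage 46 (0.57 ± 0.07, adjusted p = 0.000436), and rose by 0.74 ± 0.10 in the last step (adjusted p = 0.000695). Each region was well above background on 1 array at stage 30, and the posterior channel on 1 at stage 46. Spot XL108o20 was near 0 at the first 2 stages, at -0.04 and -0.15, and higher at stage 46 (0.51 ± 0.07, adjusted p = 0.000705). This was the spot of the name with both regions well above background on every array. XL079m17 was lower at stage 30 by a fitted 1.36-fold (adjusted p = 0.000494), with the anterior channel not well above background. At stage 39 it was lower by 1.22-fold (adjusted p = 0.00258), with each region well above background on 1 array.

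The other protein 4.1 spots had values on fewer arrays. XL088j11 was lower at stage 30 (-0.76 ± 0.12, adjusted p = 0.00185) and stage 39 (-0.49 ± 0.12, adjusted p = 0.0099), the last call being lost without either array of stage 39 (adjusted p 0.0725 and 0.107), and on the 1 array of stage 46 where it was found it gave 0.51. XL091b22 was lower at stage 39 (-0.42 ± 0.06, adjusted p = 0.00135) and at 0.18 ± 0.06 at stage 46 (adjusted p = 0.0525). Its anterior channel was well above background on 1 array at stage 39, and each region on 1 at stage 46. The spot that did not pass, XL083a09, gave -0.62 on 1 array of stage 30, 0.07 on 1 of stage 39 and 0.33 and 0.27 at stage 46.

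Within the regions, 0 of 4 protein 4.1 spots with a value on every array passed in limma. At an unadjusted p under 0.05 there was 1 in each step in anterior endoderm and 0 in posterior endoderm. Over all probes this share was 28.4% and then 22.4% in anterior, and 22.8% and then 19.1% in posterior endoderm. The log2 signal of XL105j07 was 10.19 and 9.92 in anterior against 10.74 and 10.23 in posterior endoderm at stage 30. It was 10.32 and 10.54 in anterior against 10.46 and 10.73 in posterior endoderm at stage 39, and 10.37 and 10.85 in anterior against 9.81 and 10.27 in posterior endoderm at stage 46. The arrays of a stage differed by about as much as the stages did. From stage 39 to 46 the anterior difference was 0.18 ± 0.31 (adjusted p = 0.767) and the posterior one -0.56 ± 0.31 (adjusted p = 0.36). The shift of this name was seen in the ratio and was not resolved by channel.

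Most tested spots of cytoskeletal protein 4.1G were higher in anterior endoderm. At stage 30 this held for 3 of 4, and 1 missed the threshold (XL074l14), with neither region well above background. At stage 39, 3 were higher and 1 lower among the 4 with a region well above background, and at stage 46, 2 of 3 were higher and 1 lower. Over all probes, 28.6%, 31.4% and 30.4% were higher at stages 30, 39 and 46. The shares lower at stages 39 and 46 were 31.7% and 25.2%. Spot XL061d01 gave 0.43 and 0.59, then 0.88 and 0.81, then 0.27 and 0.25. Its stages did not overlap, and it was highest at stage 39. At stage 30 each region was well above background on 1 array, but on different arrays, so no array measured both. The fitted ratios were 0.51 ± 0.06 (adjusted p = 0.000388), 0.84 ± 0.06 (adjusted p = 2.17e-05) and 0.26 ± 0.06 (adjusted p = 0.00804), with a rise of 0.33 ± 0.09 (adjusted p = 0.0116) and then a fall of -0.58 ± 0.09 (adjusted p = 0.00112). The stage 46 call was lost without either array of that stage (adjusted p 0.0755 and 0.0879).

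The brightest 4.1G spot with a value on every array, XL070d05, gave 0.38 and 0.30, then 1.07 and 0.84, then 0.56 and 0.53. It was higher at stage 30 (0.34 ± 0.07, adjusted p = 0.00412) and at stage 46 (0.55 ± 0.07, adjusted p = 0.000511). Neither region was well above background at stage 39, so no size, rank or change is given for that stage.

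Within the regions, XL061d01 had an anterior log2 signal of 8.80 and 8.78 against 8.37 and 8.19 in posterior endoderm at stage 30. It had 9.71 and 9.56 in anterior against 8.84 and 8.74 in posterior endoderm at stage 39, and 8.50 and 8.43 in anterior against 8.23 and 8.18 in posterior endoderm at stage 46. Both regions were highest at stage 39. The anterior signal rose by 0.84 ± 0.25 to stage 39 (adjusted p = 0.0493) and then fell by 1.17 ± 0.25 (adjusted p = 0.0212), with posterior differences of 0.51 ± 0.25 (adjusted p = 0.243) and -0.59 ± 0.25 (adjusted p = 0.215). The anterior rise was not called under 4 other settings of background or normalisation (adjusted p 0.0539 to 0.0729) or without any single array but A of stage 30 (0.0654 to 0.264). The fall was not called without any single array of stage 39 or 46 (adjusted p 0.134 to 0.165).

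Of the other 4.1G spots, XL107d06 had brighter signals than XL070d05 where it was found, and gave 0.53 and 0.66 at stage 30 and 0.62 and 0.78 at stage 39. It was higher at stage 30 (0.60 ± 0.07, adjusted p = 0.000549) and stage 39 (0.70 ± 0.07, adjusted p = 0.000169) and was not found at stage 46. XL074l14 was higher at stage 39 (0.40 ± 0.09, adjusted p = 0.00708), a call lost without array A of that stage (adjusted p = 0.117). XL071m05 went against the rest of the name. It gave 0.29 on 1 array of stage 30, -0.55 and -0.44 at stage 39 and -0.15 and -0.31 at stage 46. XL071m05 was lower at stage 39 (-0.49 ± 0.07, adjusted p = 0.000781). At stage 46 it was lower by a fitted 1.17-fold (adjusted p = 0.0248), with the anterior channel not well above background. The stage 46 call was lost without array A or B of that stage. The unpassed spot XL082a05 gave 0.49 and 0.33 at stage 30 and 0.35 and 0.44 at stage 46. Spots of protein 4.1 and of 4.1G may take up each other's cDNA, as may the gene copies of this allotetraploid frog (RefSeq lists 2 for adducin alpha), and this cannot be resolved from the arrays.

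The 55 kDa erythrocyte membrane protein was lower in anterior endoderm wherever a spot was called, in 1 of 2 tested spots at stage 30, 2 of 3 at stage 39 and 3 of 4 at stage 46. Over all probes, 27.7%, 31.7% and 25.2% were called lower at these stages. Spot XL071c11, well above background in both regions on all 6 arrays, gave -0.44 and -0.20, then -0.54 and -0.28, then -0.79 and -0.71. Stages 30 and 39 overlapped, and stage 46 was lowest. The fitted ratios were -0.32 ± 0.08 (adjusted p = 0.0134), -0.41 ± 0.08 (adjusted p = 0.00334) and -0.75 ± 0.08 (adjusted p = 0.000284), the last being 1.69-fold lower in anterior endoderm. The first 2 calls were each lost without array A of the stage (adjusted p 0.146 and 0.0784). From stage 39 to 46 the ratio fell by 0.34 ± 0.12 (adjusted p = 0.0419), the 1 of 3 tested spots of the name that passed in this step. Over all probes, 22.1% were called lower in this step.

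The other spots of the scaffold were found on fewer arrays. XL071g11 gave -0.66 and -0.74 at stage 39 and -0.77 and -0.82 at stage 46, with fitted ratios of -0.70 ± 0.06 (adjusted p = 9.12e-05) and -0.80 ± 0.06 (adjusted p = 9.21e-05). Its arrays lay close together at both stages, and its change between them was -0.10 ± 0.08 (adjusted p = 0.355). XL072i07 differed widely between arrays, with -0.06 and -0.65 at stage 39 and -0.40 and -0.98 at stage 46. At stage 46 it was lower by a fitted 1.61-fold (adjusted p = 0.0132), a call lost without array B. Its anterior channel was not well above background at either stage, and its change between them did not pass (-0.33 ± 0.24, adjusted p = 0.285). XL065k05 did not pass at either stage tested (-0.11 ± 0.06 at stage 30, adjusted p = 0.153, and 0.03 ± 0.06 at stage 46, adjusted p = 0.715). Neither of its regions was well above background at stage 46. Among the 4 spots that failed the filter, XL065n08 gave -0.83 and -0.71 at stage 46, XL063b15 -0.23 and -0.33 and XL100b10 0.17 and 0.12, and XL082b14 was found on 1 array of stage 39, at -0.63.

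The alpha globin transcription factor, named for a factor that acts on the alpha globin gene, had fitted ratios of at most 0.33 log2 in size at the stages tested, while the authors' deposited table gives larger ones at stage 39. Spot XL060e20 gave -0.23 and -0.20, then -0.47 and -0.19, then -0.25 and -0.06. All 6 arrays were below 0 and the 3 stages overlapped. At stage 39 the ratio was -0.33 ± 0.08 (adjusted p = 0.00805, and 0.161 without array A). At stage 30 it was -0.22 ± 0.08 with an adjusted p of 0.04998, just under the threshold, and was not called under 3 of the other settings or without any single array of stage 30 or 46 (adjusted p 0.0542 to 0.189). At stage 46 it was -0.16 ± 0.08 (adjusted p = 0.125). Each region was well above background on 1 array at stage 30, as was the anterior channel at stages 39 and 46. XL107a05, the brighter spot, gave 0.07 and -0.09 at stage 30 and 0.10 and 0.11 at stage 46. It did not pass at stage 30 (-0.01 ± 0.06, adjusted p = 0.902) or stage 46 (0.10 ± 0.06, adjusted p = 0.21), and gave -0.54 on the 1 array of stage 39 where it was found. In the authors' deposited table the stage 39 log2 ratio was -1.04 for XL060e20 and -1.15 for XL107a05, or -0.72 and -0.83 after that table's stage median was removed.

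Spots matched by name to parts of the membrane skeleton, outside the 29, likewise held several directions. They were not limited to forms of red cells and included brain-type spectrin alpha. Of 14 spots with 7 names, 11 passed the filter. At stage 30, 0 of 9 tested were higher and 3 lower. At stage 39, 3 of 10 were higher and 4 lower, and at stage 46, 4 of 11 were higher and 5 lower. Over all probes, 28.6%, 31.4% and 30.4% were higher and 27.7%, 31.7% and 25.2% lower at the 3 stages. Among those lower at stage 46, brain-type spectrin alpha XL079h01 and XL080h01 had neither region well above background. All spots called lower at stage 30 were brain-type spectrin alpha, the non-erythroid form of the spectrin chain, led by XL058g19 with -1.11 ± 0.08, -0.98 ± 0.08 and -0.67 ± 0.08 at the 3 stages (adjusted p 6.86e-05, 4.54e-05 and 0.000466). Beta-spectrin (XL091a21) was called at stage 46 only, at 0.39 ± 0.05 (adjusted p = 0.000837). Ankyrins link spectrin to membrane proteins. The 2 spots of erythroid ankyrin stood apart at stage 39, with -0.90 ± 0.07 for XL097e06 (adjusted p = 3.99e-05) and 0.14 ± 0.08 for XL081i12 (adjusted p = 0.145). Ankyrin 3 was higher at stage 46, at 0.41 for XL109j06 (adjusted p = 0.00476); XL093j08 was also called (adjusted p = 0.000911), with the posterior channel not well above background.

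**Figure D3:**
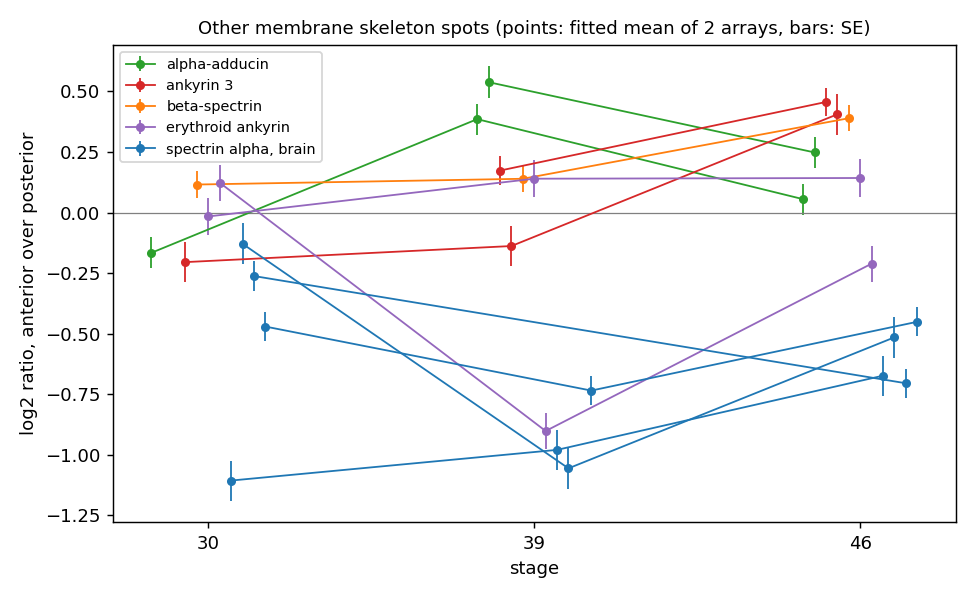
Fitted log2 ratio of anterior over posterior signal (vertical axis) at stages 30, 39 and 46 (horizontal axis) for the 11 skeleton spots outside the 29 that passed the filter, coloured by annotated name. Points are the means of 2 arrays, bars the SE of the fit, and a line passes over a stage without a tested value. Signals not well above background are included. The brain-type spectrin alpha spots lie below 0 at each stage where they were tested, and the ankyrin 3 spots lie above 0 at stage 46.

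Genes for heme and iron gave further context. Heme synthesis was represented by 2 spots of protoporphyrinogen oxidase, of which XL084l21 was lower at stages 30 and 39 (-0.53 and -0.54, adjusted p 0.000821 and 0.000485) and XL091e17 at stage 46 (adjusted p = 0.0232), where its anterior channel was not well above background. Of 17 iron spots, 15 passed the filter, with 7 higher and 2 lower of 15 at stage 30, 4 higher and 10 lower of 14 at stage 39, and 3 higher and 7 lower of 14 at stage 46. The shares over all probes are those given for the skeleton. Neither region was well above background for heme oxygenase 2 (XL110f14, higher) at stage 30 and a ferritin heavy chain (XL064d06, lower) at stage 39. For a transferrin (XL105h22, higher) the posterior channel was not at stage 46. The iron spots higher at stage 39 were 2 of serotransferrin, the plasma iron carrier made by liver, 1 further transferrin and heme oxygenase 2. Serotransferrin XL105j13 had ratios of 2.35, 0.47 and 0.84 (adjusted p 1.08e-06, 0.000362 and 3.89e-05). The ferritins, which store iron, and heme oxygenase, which breaks down heme, were lower at stage 39, among them the ferritin lower subunit (XL071n09, -1.47 ± 0.09, adjusted p = 1.12e-05) and heme oxygenase (XL090o20, -1.20 ± 0.06, adjusted p = 5.92e-06).

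The list of enzymes of red cells had 4 tested spots. Catalase (XL075m07) was lower at stage 39 (-0.98, adjusted p = 2.11e-05) and stage 46 (-0.45, adjusted p = 0.00135), bisphosphoglycerate mutase (XL070m23) was higher at stage 46 (0.31, adjusted p = 0.0153), and the peroxidase/catalase spots went opposite ways at all 3 stages (XL098p16 higher, XL108m02 lower). For XL098p16 the anterior channel was well above background on 1 array per stage, and the posterior channel on 0 at stage 46. Other cell types that a dissection could hold were poorly represented. The 7 passing spots of the leukocyte list were all LAR, a receptor phosphatase that is no leukocyte marker, with 0 higher and 2 lower of 6 at stage 30, 4 and 0 of 6 at stage 39, and 1 and 1 of 6 at stage 46. For these counts too, the shares over all probes are those given for the skeleton. The endothelial list held 1 spot, of von Willebrand factor (XL066l23), lower at stage 39 (-0.59, adjusted p = 0.000105) and near 0 at the other stages (adjusted p 0.981 and 0.906). The part of other cell types in the results above was not tested.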

How the data were processed

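RNA of anterior (Cy5) and posterior (Cy3) endoderm was compared on 6 two-colour spotted cDNA arrays in 3 deposited samples. The deposited scanner files hold linear median pixel intensity of each spot and its background, the percent of saturated pixels, and a score marking spots not found. The table the authors deposited holds a ratio per clone and stage, made with GeneData Refiner and Expressionist per the labels; it was used only as an alternative. In R 4.3.3 with limma 3.58.1 and data.table (version 1.17.8), background was corrected by normexp (offset 50) and log2 ratios of the deposited intensity values by loess (span 0.3); the 239 control spots and spots not found were left out of the loess and the tests. The filter left 15640 probes. All arrays entered 1 fit with a mean per stage (3 residual degrees of freedom), and a comparison used probes with a value on all its arrays. Channels were compared by Aquantile and lmscFit on 11790 probes (intraspot correlation 0.951). Tests were two-sided, were tested on simulated data, and p-values were adjusted by Benjamini-Hochberg over all probes. Values are given for every member, with every array for the brightest spot of each name among those with a value on all arrays. Every array is also given for some other spots. Of each list, ratios are given for selected spots, a few of them chosen after their values were seen. The spot with the largest ratio is not given for every name. The members and lists were chosen with earlier results of these data known. The number of arrays limits the precision.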

Additional observations from a re-analysis of the deposited data

Results flagged for a closer look

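The regional log2 ratio of 9 spots differed between neighbouring stages by limma's contrast (adjusted p under 0.05), leaving out those with a region well above background on no array of a stage compared. At membrane protein 7 the ratio of XL102b14 was lower at stage 39 than at stage 30, by -0.57, and lower again at stage 46 than at stage 39, by -1.37. At adducin alpha it was higher at stage 39 than at stage 30, by 1.29 (XL068a20) and 0.93 (XL056c15). At protein 4.1 it was higher at stage 46 than at stage 39, by 0.80 (XL098k16), 0.74 (XL105j07), 0.66 (XL108o20) and 0.59 (XL091b22). At 4.1G the ratio of XL061d01 was higher at stage 39 than at stage 30, by 0.33, with no array of stage 30 measuring both regions well above background, and lower at stage 46 than at stage 39, by -0.58. At the 55 kDa protein 1 of 3 tested spots was lower at stage 46 than at stage 39, by -0.34 (XL071c11), and the others did not pass (XL071g11, -0.10, adjusted p = 0.355; XL072i07, -0.33, adjusted p = 0.285). These contrasts compare arrays with the same dyes on the same regions. No sample was tested as standing apart from its group, since each stage had 2 arrays.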

How the results depend on the processing

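Each called or uncalled regional ratio was recomputed with no or plain background subtraction, median centring, no filter on dim probes, scale normalisation between arrays, the array letter as a block, and without each array in turn. Of 684 such values for 57 ratios, 652 kept their side of the threshold, 21 lost a call and 11 gained one. Among ratios called in the main or the changed setting, 0 changed direction. Leaving out an array of another stage, the letter block and no filter cannot alter a ratio's size or sign. In these settings only its p-value could change. Ratios called in neither could change sign, such as XL098k16 at stage 30, at -0.04 in the fit and 0.05 on array A alone. Counts of regional calls at each stage stayed within 1.5 times. For the ratio between stages 39 and 30, 7 spots were called and 7 to 11 without single arrays (11 without array B of stage 30). Within anterior endoderm from stage 30 to 39, 3 were called and 0 to 3 without single arrays (0 without either array of stage 39), and from stage 39 to 46, 1 and 0 to 2 (0 without any array of stage 39 or 46, 2 without either of stage 30). Within posterior endoderm from stage 30 to 39, 0 were called and 0 to 1 (1 without array A of stage 30), and from stage 39 to 46, 2 and 1 to 2 (1 without any array of stage 39 or 46), with 1 under plain background subtraction. Where an array was left out, its stage had 1 array assumed to vary like the rest, and for the arrays of stages 30 and 46 the intraspot correlation could not be estimated and that of all 6 arrays was used. The array letter as a replicate block changed 1 regional call, adding XL072i07 at stage 39 (adjusted p = 0.00484); the letters do not state a pairing. In the authors' deposited table, 29 ratios lay within the fitted SD of a single array, shared over stages, and 21 beyond it. No call changed sign. With its stage medians removed (chosen after seeing the data) these were 33 and 17. The correlation of that table with the log2 ratios used here was 0.995, 0.849 and 0.977 at stages 30, 39 and 46, lowest at stage 39. The 4 protein 4.1 spots called lower at stage 39 were at -0.44 (XL079m17), -0.52 (XL088j11), -0.21 (XL091b22) and -0.03 (XL098k16) with the median removed. The planned medians over globin chains, with their setting for saturated spots, and the likeness to their mean were not run, as no spot was named for one.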

Other observations

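The profiles most like each name were sought after the data had been seen, by the root mean square difference of the log2 ratio over 6 arrays from the named spot, among 7710 spots. The named spot was the brightest with a value on every array. For protein 4.1 the nearest with an informative name was thymosin beta-4 (XL078k10, 0.0688 log2), an actin-binding peptide, with mean ratios of -0.08, -0.29 and 0.50 at stages 30, 39 and 46. For the 55 kDa protein the nearest were a DNA-binding protein inhibitor of the ID family (XL075m06, 0.0999) and myosin regulatory light chain 2 (XL095j23, 0.114), the first with -0.37, -0.50 and -0.83. For membrane protein 7 the nearest with an informative name was a lipoxygenase (XL107e18, 0.175), with 0.06, -0.21 and -1.84. For adducin alpha it was a probable cation-transporting ATPase (XL086f10, 0.058), and for 4.1G a snail homolog (XL086j24, 0.0883). For the alpha globin transcription factor it was the TGFbeta-regulated protein TI-1 (XL057f16, 0.0781). The adducin and 4.1G spots compared had a stage with neither region well above background.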
